A study of Homo sapiens with 6 samples.

Results

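The genes described here are the 8 members of the E2F family of transcription factors, E2F1 to E2F8, together with MYBL2 and FOXM1, the regulators that take over from the E2Fs later in the cell cycle. They were taken by gene symbol, 10 rows out of 20030 genes in the count table, and the rule used no measured value. The choice of these genes was made with earlier results of these data known. All libraries came from HepG2, a human hepatoma line, infected with pLKO.1 lentivirus and measured by stranded mRNA sequencing. The sh-ctrl group (3 libraries) carried a control shRNA, and the sh-KIF11 group (3 libraries) carried an shRNA against KIF11, the kinesin motor that separates the spindle poles. The study's list of oligos holds 1 hairpin against KIF11, and the labels do not say which hairpin a library carries. No label says that the libraries were separate cultures, so p-values here measure only the spread between these libraries.

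E2F factors bind DNA with a DP partner and set when genes for DNA replication are transcribed. E2F1, E2F2 and E2F3 are the activators, held in check by the retinoblastoma protein RB1 until cyclin-dependent kinases release them. E2F4 and E2F5 mostly repress together with the pocket proteins RBL1 and RBL2, in resting cells as part of the DREAM complex, and E2F6 represses through Polycomb-type complexes without any pocket protein. E2F7 and E2F8 are atypical repressors, which need neither DP nor pocket protein, are themselves E2F targets and switch the replication genes off again. MYBL2 (B-MYB) and then FOXM1 join the MuvB complex, the core that DREAM also uses, to turn on the mitotic genes.

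The starting regions of the 3 activators and of E2F7, whose levels moved in different directions, are shown with the motifs they hold. Each line below holds the 250 bases before the RefSeq start on GRCh38.p14, read 5′ to 3′ on the gene's own strand. The windows are chr20:33686386-33686635 (minus strand) for E2F1, chr1:23531234-23531483 (minus) for E2F2, chr6:20401629-20401878 (plus) for E2F3 and chr12:77065570-77065819 (minus) for E2F7. Capitals mark, on either strand, an E2F site, the CHR element of mitotic genes, or a CCAAT box.
E2F1: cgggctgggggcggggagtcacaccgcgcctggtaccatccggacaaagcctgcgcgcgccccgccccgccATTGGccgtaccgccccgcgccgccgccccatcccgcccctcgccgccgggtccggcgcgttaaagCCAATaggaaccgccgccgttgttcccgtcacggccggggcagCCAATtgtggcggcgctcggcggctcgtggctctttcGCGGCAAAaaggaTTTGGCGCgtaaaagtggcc
E2F2: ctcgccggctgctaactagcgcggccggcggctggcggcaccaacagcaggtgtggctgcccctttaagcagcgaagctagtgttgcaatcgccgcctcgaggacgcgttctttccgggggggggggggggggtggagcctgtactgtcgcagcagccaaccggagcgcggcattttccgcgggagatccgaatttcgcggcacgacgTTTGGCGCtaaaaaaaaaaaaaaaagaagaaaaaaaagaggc
E2F3: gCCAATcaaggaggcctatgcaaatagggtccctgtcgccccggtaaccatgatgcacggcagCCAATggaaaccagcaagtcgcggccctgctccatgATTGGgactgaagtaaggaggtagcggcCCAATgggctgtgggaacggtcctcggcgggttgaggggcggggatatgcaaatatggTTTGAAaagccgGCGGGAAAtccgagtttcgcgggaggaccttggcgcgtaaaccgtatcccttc
E2F7: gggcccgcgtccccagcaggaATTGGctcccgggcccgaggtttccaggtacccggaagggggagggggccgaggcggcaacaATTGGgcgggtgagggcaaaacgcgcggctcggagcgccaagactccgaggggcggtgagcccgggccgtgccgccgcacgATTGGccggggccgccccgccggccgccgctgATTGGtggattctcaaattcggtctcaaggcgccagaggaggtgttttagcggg

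An E2F site was counted as TTTCCCGC, TTTGGCGC, TTTCGCGC or TTTGCCGC, the CHR element as TTTGAA or TTCGAA, and the CCAAT box as CCAAT, each on both strands, and no matched motif overlapped another in these windows. The RefSeq table held 7 of the 10 genes (E2F1, E2F2, E2F3, E2F4, E2F6, E2F7 and MYBL2). An exact E2F site stood in 3 of them, the 3 activators, against 908 of all 27305 windows (3.33%). E2F1 had 2 such sites, starting 33 and 20 bases before the start, E2F2 had 1 at 42 bases and E2F3 had 1 at 53 bases. E2F7 held no exact E2F site but had 4 CCAAT boxes, which 35.7% of all windows carry at least once. A CHR element stood in E2F3 alone, against 16.6% of all windows. Leaving out the first T of the site raised the count from 3 to 5 of 7, against 13.1% of all windows. E2F7 was among the windows gained, so its lack of a site rests on that first T. The E2F site did not go with a shared direction, since E2F1 and E2F2 fell after the knockdown and E2F3 was higher, as described next.

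Depth ranged from 18167773 to 19583282 counts per library. KIF11 itself was present at 116 ± 5.01 CPM (counts relative to the library's total, scaled with TMM factors; SD, n = 3) in sh-ctrl and at 68.8 ± 5.16 CPM in sh-KIF11, lower in all 3 libraries, so the knockdown was partial. The response was broad: of 12369 genes tested, 69.1% passed edgeR's quasi-likelihood test with a Benjamini-Hochberg adjusted p under 0.05, 34.4% higher and 34.7% lower. With library totals alone in place of TMM factors, the median of all genes moved from 0.0043 to 0.23 on the log2 scale and the split became 53.5% higher and 19.2% lower, so that the changes given below are relative to the typical gene. The 7 hepatocyte markers summed to between 31752 and 33291 CPM in sh-ctrl and between 14060 and 15189 CPM in sh-KIF11. Fibroblast and endothelial markers stayed at 4.98 CPM or less in sum, and the leukocyte markers, almost all from CD68, summed to between 77.9 and 89.1 CPM in sh-ctrl and between 41.6 and 46.2 CPM in sh-KIF11. Whether these shifts had a part in the values below was not tested, and in bulk RNA fewer cells in cycle and less RNA per cell cannot be told apart.

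All 10 genes passed the filter on low counts, with at least 249 counts in every library. The family did not move as a block: 7 of the 10 passed the test, 5 lower (E2F1, E2F2, E2F8, MYBL2 and FOXM1) and 2 higher (E2F3 and E2F7), against 69.1% of all genes called, so the share that changed was no larger than elsewhere in the transcriptome. The libraries of both groups did not overlap for 8 of the 10 genes, against 71.2% of all genes tested. What set the genes apart from each other was the direction and the size of the change.

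**Figure D1:**
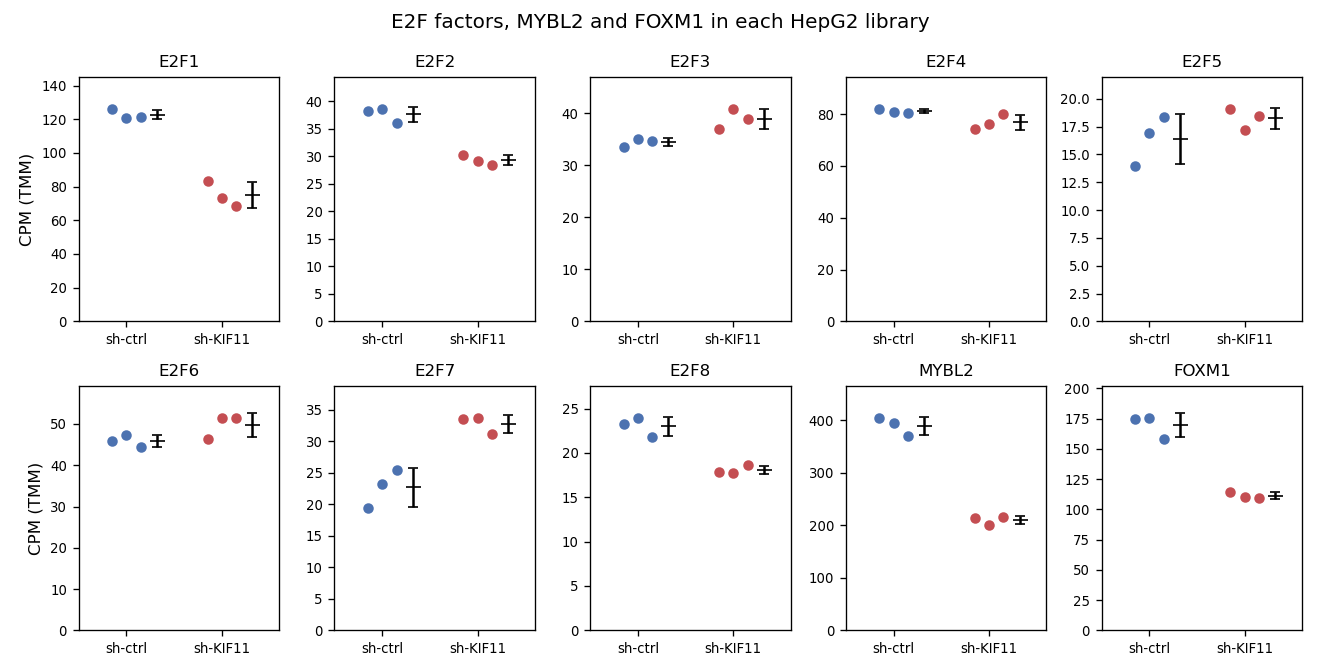
Level of each gene in every library, in CPM scaled with TMM factors (y axis from 0, one panel per gene); points are libraries, blue sh-ctrl and red sh-KIF11, and the bar beside them is the mean with its SD (n = 3). E2F1, MYBL2 and FOXM1 sit clearly lower in all 3 sh-KIF11 libraries and E2F7 clearly higher, while the groups overlap for E2F5 and E2F6.

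Among the activators E2F1 lost the most. E2F1 (chr20:33675683-33686404, GRCh38, minus strand) drives entry into S phase and was present at 126, 121 and 121 CPM in the sh-ctrl libraries and at 83.6, 73.01 and 68.7 CPM in the sh-KIF11 libraries. Every sh-KIF11 library lay well below every sh-ctrl library, and E2F1 fell by 38.8% (log2 fold change -0.71, SE 0.058, adjusted p = 3.68e-14 in edgeR's quasi-likelihood fit, Benjamini-Hochberg method). The sh-KIF11 libraries also differed more among themselves, with an SD of 7.68 CPM against 2.86 CPM in sh-ctrl.

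E2F2 (chr1:23506430-23531220, minus strand), an activator of the same class as E2F1, stood at 38.2, 38.5 and 36.1 CPM in sh-ctrl and at 30.3, 29.2 and 28.4 CPM in sh-KIF11. The groups did not overlap, and the log2 fold change was -0.36 (SE 0.074, adjusted p = 3.75e-05 in edgeR's quasi-likelihood fit, Benjamini-Hochberg method). E2F3 (chr6:20401906-20493715, plus strand), the activator that many cell types need to proliferate, went the other way, from 33.6, 35.1 and 34.6 CPM to 37.0, 40.8 and 39.0 CPM. Its groups did not overlap either, but the step was small, with a log2 fold change of 0.18 (SE 0.073, adjusted p = 0.0293 in the same edgeR fit).

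The fall of E2F1 held under all 15 alternative settings. E2F2 kept its sign but missed the threshold with library totals alone (log2 fold change -0.13, adjusted p = 0.106) and with limma on the FPKM values (0.0554 and 0.0562, according to the pseudocount), and E2F3 missed it with DESeq2 (adjusted p = 0.0631), without sh-ctrl 1 (0.0631), without sh-KIF11 2 (0.154) and without sh-KIF11 3 (0.0699).

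None of the canonical repressors passed the test. E2F4 (chr16:67192169-67198918, plus strand), the main repressive E2F of resting cells, measured 81.9, 80.9 and 80.4 CPM in sh-ctrl against 74.1, 76.3 and 80.0 CPM in sh-KIF11. These values lay close together and just did not overlap, and the log2 fold change was -0.08 with a 95% interval from -0.19 to 0.03 (adjusted p = 0.205 in edgeR's quasi-likelihood fit, Benjamini-Hochberg method), a sign that turned positive with library totals alone (0.15), with upper-quartile scaling and on the FPKM scale. E2F5, which also represses with pocket proteins, measured 13.96, 16.9 and 18.4 CPM in sh-ctrl against 19.1, 17.2 and 18.5 CPM in sh-KIF11. Its groups overlapped, with a log2 fold change of 0.16 and an interval from -0.04 to 0.35. C8orf59, which overlaps it on the opposite strand, was lower (-0.62), and reads of the pair may be mixed.

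E2F6 (chr2:11444375-11466177, minus strand), the Polycomb-linked repressor, measured 45.9, 47.3 and 44.5 CPM in sh-ctrl against 46.3, 51.4 and 51.4 CPM in sh-KIF11. The groups overlapped and the log2 fold change was 0.12 (95% interval from -0.02 to 0.25). Missing the threshold does not show that these 3 genes were constant, and the intervals give the changes that remain possible. With upper-quartile scaling, with library totals alone and on the FPKM scale, E2F5 and E2F6 passed the threshold as higher, as E2F5 also did without sh-ctrl 3 (log2 fold change 0.24, adjusted p = 0.0336 in the edgeR fit).

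The atypical repressors parted. E2F7 (chr12:77021247-77065580, minus strand), which shuts down E2F1 and its targets in late S phase and is also a target of p53, measured 19.3, 23.3 and 25.3 CPM in sh-ctrl against 33.4, 33.7 and 31.1 CPM in sh-KIF11. Every sh-KIF11 library was above every sh-ctrl library, a gain of 44.6% (log2 fold change 0.53, SE 0.084, adjusted p = 4.97e-07 in edgeR's quasi-likelihood fit, Benjamini-Hochberg method). E2F8 (chr11:19224063-19241620, minus strand), which works alongside E2F7 on the same kind of site, fell instead, from 23.3, 23.9 and 21.7 CPM to 17.9, 17.8 and 18.6 CPM. Its log2 fold change was -0.35 (SE 0.084, adjusted p = 0.000375 in the same edgeR fit), with no overlap between the groups.

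E2F7 was called higher under all 15 alternatives. E2F8 kept its sign but missed the threshold with library totals alone (log2 fold change -0.12, adjusted p = 0.214) and with limma on the FPKM values (0.0511 and 0.0549, according to the pseudocount).

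With TMM scaling MYBL2 had the largest loss of the 10 genes, and FOXM1 fell as well. MYBL2 (chr20:43667019-43716496, plus strand), an E2F target that joins MuvB in S phase, measured 404.7, 394.4 and 369.5 CPM in sh-ctrl against 214.7, 200.6 and 215.6 CPM in sh-KIF11. With all sh-KIF11 libraries far below all sh-ctrl libraries, it fell by 46.02% (log2 fold change -0.89, SE 0.050, adjusted p = 2.32e-19 in edgeR's quasi-likelihood fit, Benjamini-Hochberg method). FOXM1 (chr12:2857681-2877155, minus strand), the forkhead factor that drives G2/M genes, went from 175, 175 and 158 CPM to 114, 110.1 and 109.5 CPM. Its groups lay far apart as well, and it fell by 34.4% (log2 fold change -0.61, SE 0.052, adjusted p = 1.34e-13 in the same edgeR fit).

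Both held under all 15 alternatives, between -0.93 and -0.66 for MYBL2 and between -0.66 and -0.38 for FOXM1. FOXM1 overlaps RHNO1 and ITFG2 on the opposite strand, and whether counting used the strand is not given in the sources used here. RHNO1 had a log2 fold change of -0.31 and ITFG2 of 0.22 (the latter not called), and reads shared with FOXM1 cannot be told apart from its own.

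**Figure D2:**
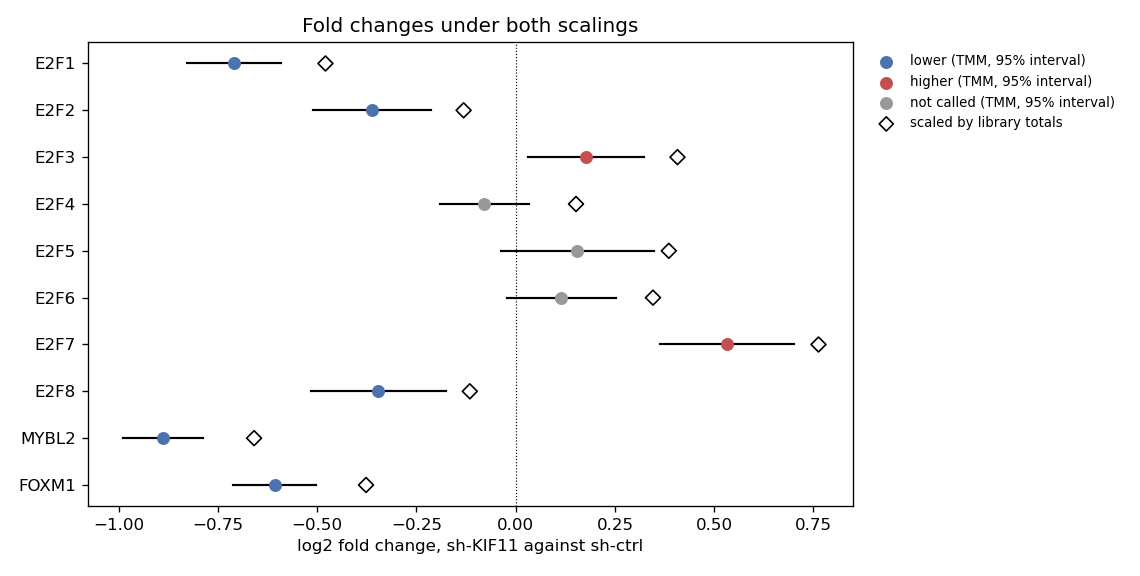
Log2 fold change of each gene, sh-KIF11 against sh-ctrl (x axis), with TMM scaling (filled points and 95% intervals; blue lower, red higher, grey not called) and with library totals alone (open diamonds). All diamonds lie about 0.23 to the right of the points, and only E2F4 crosses from below to above 0 between the scalings.

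How the activators stood against the repressors was read within each library, where the ratio of 2 genes does not depend on how libraries are scaled. CPM values are not corrected for length, so only the change of such a ratio between groups is read. In sh-ctrl the log2 ratio of E2F1 to E2F4 in CPM was 0.62, 0.58 and 0.59, and in sh-KIF11 it was 0.17, -0.06 and -0.22. All 3 knockdown libraries lay below all 3 controls, a mean difference of -0.63, and the SD rose from 0.021 to 0.20. The ratio of E2F3 to E2F4 went up, from -1.23 ± 0.045 to -0.98 ± 0.069 (SD, n = 3), so the activators did not lose ground together.

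Of the 6 pairs of genes compared in this way, E2F1 and the repressor E2F7 showed the widest shift. Their log2 ratio was 2.70, 2.37 and 2.25 in sh-ctrl against 1.32, 1.11 and 1.14 in sh-KIF11, without overlap and with a mean difference of -1.25. The log2 ratio of E2F7 to E2F8 moved from -0.27, -0.04 and 0.22 in sh-ctrl to 0.90, 0.92 and 0.74 in sh-KIF11, again without overlap. Over the classes, the mean log2 CPM of E2F1 to E2F3 exceeded that of E2F4 to E2F8 by 0.78 ± 0.080 in sh-ctrl and by 0.40 ± 0.068 in sh-KIF11. This difference of -0.38 was larger than the spread in either group and ranged from -0.41 to -0.33 when any single library was left out. With 3 libraries against 3, an exact two-sided permutation test cannot give a p below 0.1, so the ratios are reported as values.

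Levels can be compared between genes only per length, for which the deposited FPKM values were used. In sh-ctrl the order from the top was MYBL2 (76.5 ± 3.19 FPKM; SD, n = 3), E2F1 (33.8 ± 0.560), E2F4 (27.1 ± 0.423) and FOXM1 (26.2 ± 1.27), of which E2F4 and FOXM1 overlapped. E2F5 (6.48 FPKM) and E2F6 (6.32 FPKM) followed and overlapped, E2F2 stood at 4.59 ± 0.159 FPKM, and E2F8, E2F3 and E2F7 closed the order between 3.33 and 3.69 FPKM without being distinguishable from their neighbours. In sh-KIF11 E2F4 (28.8 ± 0.929 FPKM) stood above E2F1 (23.6 ± 2.28 FPKM) in all 3 libraries, the reverse of all 3 controls. E2F7, last in 2 of the 3 sh-ctrl libraries, stood above E2F3, E2F2 and E2F8 in all 3 sh-KIF11 libraries, at 5.32 ± 0.148 FPKM against 4.46 ± 0.266, 4.08 ± 0.103 and 3.23 ± 0.0732.

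The make-up of the E2F transcripts was read as shares of the summed E2F1 to E2F8 FPKM in each library. The activators supplied 48.1, 47.0 and 46.5% of this sum in sh-ctrl against 39.6, 37.4 and 35.2% in sh-KIF11, with no overlap. The share of E2F1 alone went from 38.1% ± 0.708 to 27.5% ± 2.43, while the share of E2F4 went from 30.5% ± 0.590 to 33.5% ± 1.34 and that of E2F7 with E2F8 from 7.90% ± 0.339 to 9.95% ± 0.0739. These shares are fixed within a library and so do not depend on the scaling. E2F3, E2F4 and E2F6 have pseudogene copies in the annotation, and how the authors counted reads that match a copy is not given in the sources used here.

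**Figure D3:**
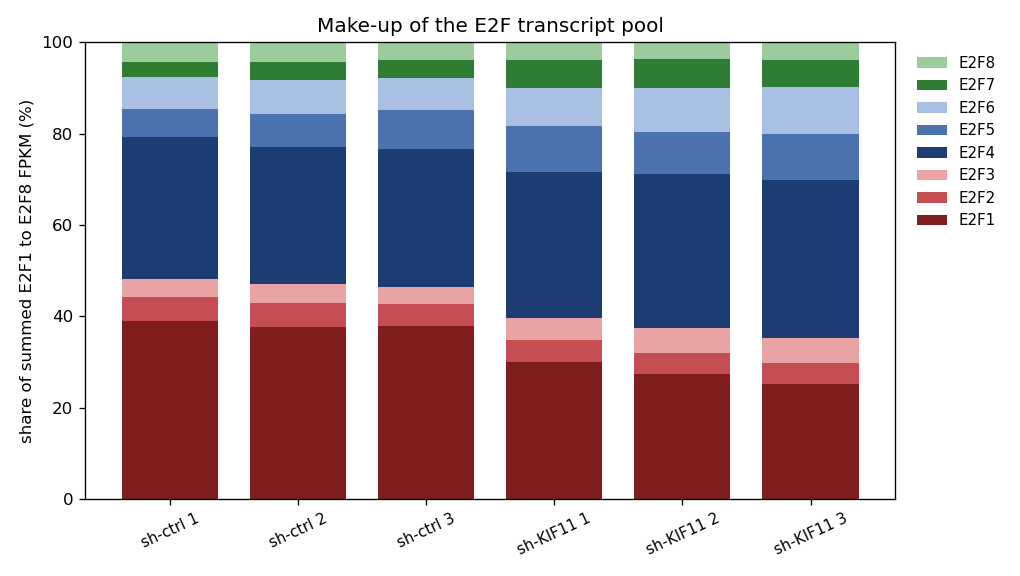
Share of the summed E2F1 to E2F8 FPKM that each gene supplied (y axis, percent) in each library; red tones are activators, blue tones canonical repressors and green tones atypical repressors. The red segment ends between 46.5 and 48.1% in sh-ctrl and between 35.2 and 39.6% in sh-KIF11, mainly through a shorter E2F1 segment, and the E2F7 segment is wider in sh-KIF11.

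The partners that decide what an E2F does moved in both directions. TFDP1, the main DP partner, fell from 178 to 136 CPM (log2 fold change -0.39, adjusted p = 9.15e-09 in edgeR's quasi-likelihood fit, Benjamini-Hochberg method), TFDP2 was not called (-0.11), and TFDP3 had 0 counts in every library. Of the pocket proteins, RB1 was counted 1200, 1169 and 1406 times in sh-ctrl, 1888, 1870 and 1879 times in sh-KIF11, and rose by 0.38 on the log2 scale. RBL2 (p130), the pocket protein of resting cells, rose by 0.37, and RBL1 (p107), which is itself an E2F target, was not called (-0.06). With library totals alone RBL1 was called higher as well (0.17, adjusted p = 0.0233 in the edgeR fit). The pocket list thus had 2 higher and 0 lower of 3, and 3 higher with library totals alone, against 34.4% and 53.5% of all genes higher, and its median was 0.37 against 0.0043 for all genes.

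In the MuvB core, shared by DREAM and the MYBL2 complex, LIN52 (-0.28), LIN54 (-0.39) and RBBP4 (-0.11) were lower, and LIN37 (-0.27) and LIN9 (0.06) were not called, 3 lower and 0 higher of 5, against 34.7% of all genes lower. The calls rest on the scaling: with library totals alone LIN9 and RBBP4 were called higher and none lower, where 53.5% of all genes were higher and 19.2% lower, and the list's median was -0.04 instead of -0.27. RBBP4 also missed the threshold in 4 of the 6 fits that left out 1 library (sh-ctrl 2, sh-ctrl 3, sh-KIF11 1 or sh-KIF11 3; adjusted p from 0.0694 to 0.186 in the edgeR fits). The log2 falls of MYBL2 and FOXM1 were larger than that of any of these 5 subunits.

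Upstream of the pocket proteins, where cyclins and their kinases release the E2Fs and the INK4 inhibitors hold the kinases back, 6 of 14 tested genes were higher and 7 lower, against 34.4% and 34.7% of all genes, with a median of 0.02. The D cyclins parted, with CCND2 (log2 fold change 2.81) and CCND1 (0.75) higher and CCND3 (-1.54) lower. So did the INK4 inhibitors, with CDKN2B (2.86) higher and CDKN2C (-0.98) and CDKN2D (-0.89), both known as E2F targets, lower. The fourth INK4 gene, CDKN2A, named here after its values were seen because its level is below the limit set for naming, was counted 26, 20 and 14 times in sh-ctrl against 189, 178 and 155 times in sh-KIF11 (2.92). Each of these 7 was called under every scaling tried.

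E2F6 acts with a complex of MGA, MAX, L3MBTL2 and the RING1 or RNF2 ubiquitin ligases. Of its 10 listed subunits, 4 were higher and 3 lower, with a median of 0.04, near the shares among all genes (34.4% higher and 34.7% lower). YAF2 (0.67), RNF2 (0.52) and MGA (0.35) stood at the top and L3MBTL2 (-0.38), RING1 (-0.35) and WDR5 (-0.33) at the bottom, the first set called under every scaling and none of the second with library totals alone. The germline genes that this complex keeps silent were not tested, since none of the 6 had more than 12 counts in any library. STAG3, a meiotic cohesin, was read 3, 2 and 3 times in sh-ctrl against 7, 6 and 3 times in sh-KIF11. TUBA3E went the other way, with 12, 4 and 1 against 2, 0 and 3 counts. SMC1B, TUBA3C and TUBA3D had 0 counts in every library, and SLC25A31 had 1 count, in sh-KIF11 3. No direction is read from such counts.

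Most of the genes listed as switched on by the E2Fs and the MYBL2 and FOXM1 complexes fell. Both target lists were chosen with earlier results of these data known, so their shares describe the lists and are no independent test. Of 34 replication and G1/S targets of E2F, 28 were lower and 2 higher, 82.4% lower against 34.7% of all genes, with a median of -0.32. TK1 (-1.01), which makes thymidine monophosphate, CDT1 (-0.78), which loads the MCM helicase at origins, and RRM2 (-0.74), the regulated subunit of ribonucleotide reductase, led the list. CASP8AP2 (0.54), linked to histone transcript processing, and BRCA1 (0.24), the repair factor, were higher. With any single library left out, between 26 and 28 of the 34 targets were lower and 2 were higher. With library totals alone the count became 16 lower and 5 higher, with a median of -0.09. Under that scaling 19.2% of all genes were lower and 53.5% higher, and their median was 0.23. The E cyclins CCNE1 (0.33, called higher) and CCNE2 (0.21, not called) were counted upstream of the pocket proteins and not in this list. The same holds for CDKN2C and CDKN2D, both lower.

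Of 35 G2/M targets of MYBL2-MuvB and FOXM1, 28 were lower and 4 higher, with a median of -0.55. That was 80.0% lower and 11.4% higher, against 34.7% and 34.4% of all genes. BIRC5 (-0.996, survivin), CDC20 (-0.96), the activator of the anaphase-promoting complex, and AURKB (-0.92), the kinase of the chromosomal passenger complex, led the list. Under library totals alone 24 were still lower and 7 higher, with a median of -0.32. Of all genes, 19.2% were lower and 53.5% higher under that scaling. CENPE (0.87), a kinetochore motor, ASPM (0.50), a spindle pole protein, CENPF (0.22) and HMMR (0.14) were higher, and TTK, KIF23 and ECT2 were not called. HMMR missed the threshold without sh-ctrl 1, sh-KIF11 1, sh-KIF11 2 or sh-KIF11 3, and ECT2 was called higher without sh-ctrl 3. CENPE was counted 548, 605 and 454 times in sh-ctrl against 1071, 1159 and 1139 times in sh-KIF11. CENPE, ASPM, CENPF, BRCA1 and CASP8AP2 have merged exon lengths between 8.17 and 11.7 kb, within the longest quartile of tested genes, and the part of length in their change was not tested.

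Promoter letters differed between the target lists. The exact E2F site stood in 16 of the 29 G1/S targets with a window (55.2%) and in 3 of the 30 G2/M targets, against 3.33% of all windows. With the first T left out the counts were 19 of 29 (65.5%) and 10 of 30 (33.3%), against 13.1% of all windows. The size of this contrast thus rests in part on that first T. The CHR element showed the opposite order, with 2 of 29 (6.90%) and 22 of 30 (73.3%), against 16.6% of all windows, and CCAAT boxes were common in both, at 69.0% and 80.0%. Within the G1/S list, 14 of the 16 genes with the exact site were lower (median -0.43), as were 10 of the 13 without it (median -0.25). Within the G2/M list, 17 of the 22 genes with a CHR element were lower (median -0.41) and 7 of the 8 without it (median -0.74). Both lists were drawn up as known targets, so their motifs describe them and are no separate evidence.

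**Figure D4:**
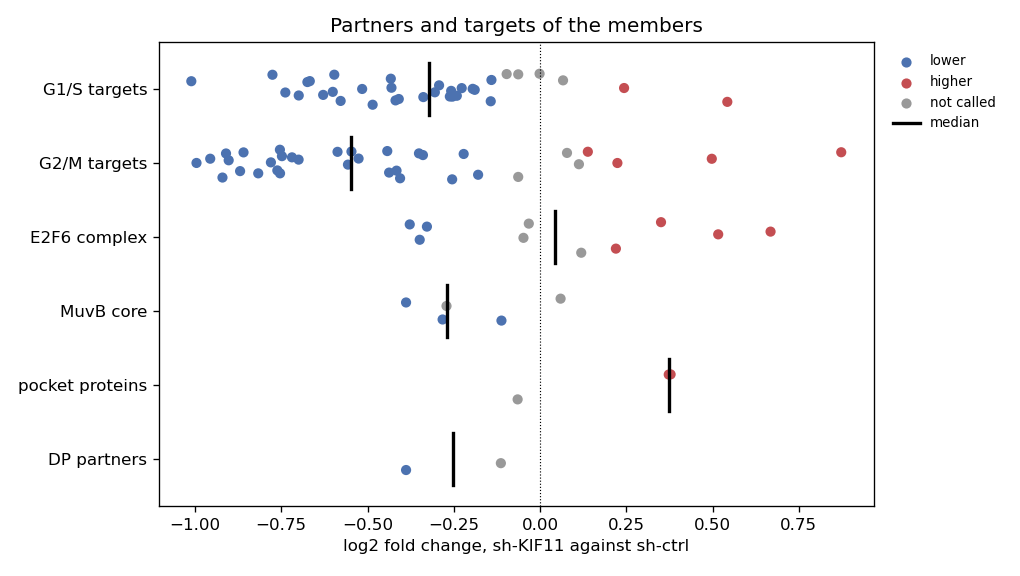
Log2 fold change with TMM scaling (x axis) of each tested gene in 6 lists of partners and targets; blue is lower, red higher and grey not called, and the black bar is the list's median (vertical position within a row is arbitrary). The G1/S and G2/M targets lie mostly left of 0 with medians of -0.32 and -0.55, and the pocket proteins RB1 and RBL2 lie right of it. The MuvB core has a median of -0.27 here. Its median of -0.04 under library totals alone is not plotted.

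The genes whose pattern over the 6 libraries was most like that of a member were looked up by Pearson's r of log2 CPM. Tested genes outside the lists with a mean of at least 5 CPM were searched. This r compares neither the level nor the size of a change. For example, E2F4 (log2 fold change -0.08, not called) was matched to ZFP36 (-0.53, called lower) and E2F7 (0.53) to MTX3 (0.21). They were LRIG1 and HOXD1 for E2F1, NUCB1 and TECR for E2F2, SRFBP1 and OSGIN2 for E2F3, CHST13 and DUSP9 for MYBL2, and LONP1 and TRIR for FOXM1. E2F7 was nearest to MTX3 and ARL15, E2F8 to DTX2 and SHF, E2F4 to ZFP36 and CTU1, E2F5 to ATG3 and DRAM1, and E2F6 to HGD and ZC3HAV1. All r were at least 0.982 over the 6 libraries, and how often pairs of genes reach such values was not counted.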

How the data were processed

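Messenger RNA libraries of HepG2 cells with a control shRNA (sh-ctrl, 3) or an shRNA against KIF11 (sh-KIF11, 3) were compared. Knockdown columns are headed only shRNA and were taken as sh-KIF11, the one other shRNA in the labels. The authors deposited raw counts per gene and a table of FPKM values, which the authors had scaled to length and library size. The submitters' processing notes name Trimmomatic, HISAT2 2.1.0, HTSeq 0.9.1, Cufflinks 2.2.1 and GRCh38. The annotation used for counting is not given in the sources used here.

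The count model was edgeR 4.0.16 under R 4.3.3 (filterByExpr, TMM, quasi-likelihood test with group as the only term, two-sided, Benjamini-Hochberg adjustment over 12369 genes, threshold 0.05), tested on simulated data first. Alternatives used DESeq2 1.42.0, limma 3.58.1 on log2(FPKM + 1) and log2(FPKM + 0.1), other scalings and filters, a replicate block, and each library left out. log2 CPM used a prior count of 2. Positions come from GENCODE release 29, and exon lengths are its merged exons. Promoter windows come from RefSeq and span 250 bases before to 50 after the start, and all were searched whole.

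Named genes are the 10 members, KIF11, all DP, pocket and MuvB genes, up to 3 per direction and list with the largest called change, at least 5 CPM and no overlap, and the 2 nearest patterns per member. CDKN2A, CCNE1, CCNE2, the germline genes and genes that complete a count of 5 or fewer were named after their values were seen. Exon lengths were also compared only after values were seen. The members and lists were chosen with earlier results of these data known. Counts carry counting error and the spread between libraries only. Same-numbered libraries were not paired, as given with the alternatives.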

Additional observations from a re-analysis of the deposited data

How the results depend on the processing

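Of 150 pairs of member and alternative setting, 127 kept direction and side of the threshold, 10 lost the call, 9 gained it and 4 turned the sign. All 4 were E2F4, with upper-quartile scaling (0.000256), library totals alone (0.15) and limma on log2(FPKM + 1) (0.0860) and log2(FPKM + 0.1) (0.0887), of which library totals alone passed the threshold (adjusted p = 0.0139 by edgeR's quasi-likelihood test). The number of members called ranged from 6 to 9 over all settings and from 6 to 8 with any 1 library left out. E2F5 was called without sh-ctrl 3 (log2 fold change 0.24, adjusted p = 0.0336 in the edgeR fit), and E2F3 was not called without sh-ctrl 1, sh-KIF11 2 or sh-KIF11 3. Over the leave-one-out fits E2F1 lay between -0.80 and -0.65, E2F7 between 0.43 and 0.62, MYBL2 between -0.93 and -0.86 and FOXM1 between -0.66 and -0.58. The changed members of the MuvB core numbered 1 with limma on log2(FPKM + 0.1) and 3 in the edgeR fit, and members with an E2F site numbered 5 with the first T left out. In the fit with a replicate block 8607 genes were called, 4296 higher and 4311 lower, and it changed no call of a member. Same-numbered libraries deviated from their group means with r of 0.0300, -0.0185 and -0.00253, so the numbers were not read as pairs. At 3 libraries a group the standard error of a member's log2 fold change ranged from 0.050 to 0.096, which sets the smallest change that could be called.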

Other observations

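Several listed targets that rose against their list had a long merged exon length. This length pools the exons of all annotated isoforms of a gene and is not the length of a transcript. Merged exon length in GENCODE release 29 was found for 12219 of the 12369 tested genes, and the median log2 fold change was -0.20 in the shortest quartile of genes (up to 3.27 kb) and 0.17 in the longest (from 7.49 kb). In the shortest quartile 20.8% of genes were higher and 48.7% lower, and in the longest 50.7% were higher and 21.6% lower. Spearman's rho of length with fold change was 0.25 across all these genes, 0.43 across the 34 G1/S targets and 0.67 across the 35 G2/M targets, across genes that are not independent replicates. CENPE (9.44 kb), ASPM (10.9 kb), CENPF (11.7 kb), BRCA1 (9.19 kb) and CASP8AP2 (8.17 kb), all higher, belong to the longest quartile. MKI67 (12.8 kb) fell by 0.44 on the log2 scale despite its length, and HMMR (3.94 kb) was higher with a shorter merged exon length.

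Among the factors themselves, E2F1 (2.50 kb) and MYBL2 (2.78 kb) belong to the shortest quartile, and FOXM1 (4.90 kb) and E2F8 (4.14 kb) to the second. E2F7 (6.30 kb) and E2F3 (5.16 kb), the pair that was higher, belong to the third, together with E2F2 (5.46 kb), which was lower, and E2F5 (5.93 kb), which was not called. The part of length in these fold changes was not tested.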
